A study of Mus musculus with 25 samples.

Results

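The lysosomal genes described here are 51 of the 37085 gene symbols in the table: 27 listed genes that encode proteases, other hydrolases and their cofactors, membrane proteins, cholesterol exporters and the regulator Tfeb, and the 24 symbols that start with Atp6v0 or Atp6v1, most of which name subunits of the proton pump (Atp6v0c-ps2 is a pseudogene and Atp6v1fnb is named as a neighbour of Atp6v1f). They were chosen by symbol, with no cut-off on a measured value. The list was however made with earlier results of these data known. Polyadenylated RNA was measured with 3' end tags (QuantSeq 3' FWD) in hepatocytes of C57BL/6 mice, in 25 libraries. The groups were a normal diet (5 libraries) and a NASH-inducing diet (NASH, non-alcoholic steatohepatitis) for 1, 2, 3, 4, 5 or 6 weeks (4, 3, 4, 3, 3 and 3 libraries). Livers were perfused with collagenase, and the cells were pelleted at low speed and sorted by flow cytometry. The sources used here name neither the sorting gate nor what the diet contained, and give no age for the mice. The series asks how hepatocyte gene expression changes with each further week of the NASH diet, against the normal diet. Nothing in the labels states that the libraries come from separate mice; p-values then measure only the spread between libraries, which may be technical.

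Lysosomes are membrane-bound compartments in which acid hydrolases break down proteins, glycans, lipids and material delivered by autophagy or endocytosis. The vacuolar proton pump acidifies them: its V1 sector in the cytosol splits ATP and its V0 sector in the membrane carries the protons. The transcription factor TFEB binds the CLEAR motif in many lysosomal gene promoters. In the liver, hepatocytes use lysosomes to turn over lipid droplets and lipoproteins, and Kupffer cells, the resident macrophages, are rich in cathepsins.

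Libraries held 5281143 to 10015751 counts, of which the 51 genes took 0.365 to 0.669%. Of all symbols, 11869 passed the filter on low counts and were tested, 41 of the lysosomal genes among them. Levels are given as CPM, which are counts per unit of library total, scaled for library composition. All 10 hepatocyte markers were tested. Their summed level was 102811 to 111810 CPM on normal diet and 85222 to 94861 CPM at week 1. It was 85516 to 106557 CPM at week 2, 82371 to 98247 CPM at week 3 and 91073 to 103431 CPM at week 4. At weeks 5 and 6 it was 77393 to 84788.5 CPM and 80836 to 85555 CPM. Alb weighs most in this sum, with means of 64061 CPM on normal diet, 48532 CPM at week 1 and 51064 CPM at week 6. The summed markers of 4 of 5 other liver cell classes were higher at weeks 5 and 6. The 15 Kupffer cell markers summed to 213 to 773 CPM on normal diet, to 2077 to 2253 CPM at week 5 and to 1782 to 2033 CPM at week 6. The 14 markers of monocytes, recruited macrophages and dendritic cells summed to 60.0 to 399 CPM, 666 to 889 CPM and 643 to 1012 CPM in the same groups. The 14 sinusoidal endothelial markers summed to 231 to 888 CPM, 2061 to 2392 CPM and 1682 to 2058 CPM, and the 14 stellate cell markers to 76.9 to 157 CPM, 482 to 1006 CPM and 470 to 813 CPM. The 7 cholangiocyte markers, 2 of which were tested, summed to 35.1 to 54.9 CPM, 18.8 to 39.3 CPM and 32.2 to 46.3 CPM, so that these groups overlapped. Sox9 weighs most in this sum, with means of 41.1, 25.9 and 34.5 CPM, and was not called at week 5 or 6. Bicc1, the other tested marker, rose from 0.886 CPM to 4.18 CPM at both weeks (edgeR adjusted p = 0.000446 and 0.000723). The overlap of the sums is therefore mainly that of Sox9. No marker of the other 4 lists was at 0 in any group. The marker score, which is the mean log2 CPM of the Kupffer, endothelial and stellate lists, was lowest in normal-diet libraries 5 and 1, at 2.54 and 2.86, against 3.67 to 4.22 in the other normal-diet libraries. It uses markers that passed the filter on low counts, which a marker can pass through its highest groups. The stellate marker Acta2 had means of at most 0.290 CPM up to week 4 and 1.14 and 1.12 CPM at weeks 5 and 6. In bulk samples, fewer cells of a type and less RNA per cell cannot be told apart.

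On normal diet, 12 of the 51 genes had a mean of at least 100 CPM, 35 of at least 10 CPM and 39 of at least 1 CPM. A 3' tag library yields about 1 tag per transcript, so these CPM are compared between genes with no scaling by length. Lamp1, an abundant glycoprotein of the lysosomal membrane, had the highest level, 644 ± 69.6 CPM (SD, n = 5, as for all normal-diet means). It was followed by the cysteine protease Ctsl at 492 ± 52.4 CPM, the membrane protein Lamp2 at 458 ± 17.9 CPM and the protease Ctsb at 328 ± 26.8 CPM. Lamp1 did not overlap with Ctsl over the 5 libraries, nor Lamp2 with Ctsb, whereas Ctsl and Lamp2 overlapped. From Ctsb down to Atp6v1e1, a stalk subunit of the pump at 150 ± 8.46 CPM, each gene overlapped with the next in order, through Ctsh, Ctsd, Psap, Grn and Lipa.

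Promoter windows from 250 bases before to 50 after the RefSeq start site were found for 40 of the 51 genes (RefSeq, build GRCm38.p6, an older build than that of the counts). They were searched for TCACGTGA, the core of the CLEAR motif, and for the E-box CACGTG inside it. Both are palindromes, so both strands read the same. TCACGTGA was present in 7 of the 40 genes (17.5%), against 1.12% of all 27025 genes with a window, and CACGTG in 12 (30%), against 8.09%. Counted by window, 7 and 12 of the 48 windows of lysosomal genes held them, against 0.974% and 7.15% of all 32851. The motif is known from lysosomal promoters, so a higher share in this list was to be foreseen and is no test. Stretches from 6 genes are shown: the 5 with the CLEAR core before the start site, and Lamp1, with 4 E-boxes. Capitals mark TCACGTGA, or CACGTG in Lamp1.
Ctsd, chr7:142387899-142387946, minus strand: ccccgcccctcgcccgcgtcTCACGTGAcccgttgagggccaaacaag
Ctsa, chr2:164833740-164833772, plus strand: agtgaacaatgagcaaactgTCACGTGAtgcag
Gla, chrX:134601173-134601253, minus strand: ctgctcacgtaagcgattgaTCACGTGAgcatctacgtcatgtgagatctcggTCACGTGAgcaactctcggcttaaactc
Mcoln1, chr8:3500453-3500500, plus strand: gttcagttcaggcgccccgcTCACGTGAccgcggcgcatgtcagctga
Atp6v1a, chr16:44139364-44139411, minus strand: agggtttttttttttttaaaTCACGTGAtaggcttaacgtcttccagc
Lamp1, chr8:13159080-13159160, plus strand: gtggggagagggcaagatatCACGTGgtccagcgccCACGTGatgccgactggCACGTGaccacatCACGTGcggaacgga

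Lamp1, the gene with the highest level, had its 4 E-boxes between positions -61 and -15 from the start site, and Gla had 2 CLEAR cores, at -228 and -195. Ctsa had 1 at -13 and another just after the start site (positions are of a motif's first base). The other 2 genes with TCACGTGA were those of the pump subunits Atp6v0d1 and Atp6v0e, where it lies at or just after the start site. A match describes letters in a window and is not a measured binding site.

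**Figure D1:**
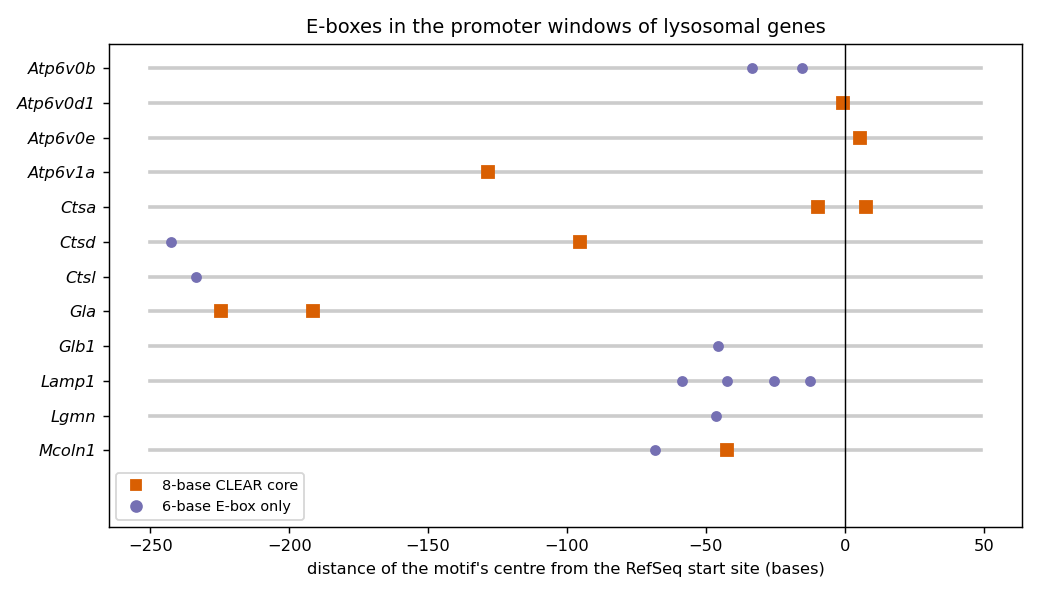
Positions of E-boxes in the promoter windows of the 12 lysosomal genes that hold at least 1, as the distance of the motif's centre from the RefSeq start site in bases. Squares are TCACGTGA, circles are CACGTG outside it, and grey lines are the windows searched; Lamp1 has 4 circles, and Gla and Ctsa have 2 squares each.

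At weeks 5 and 6 the summed level of the 51 genes lay above the normal-diet range in every library, while up to week 4 the ranges overlapped. The sum was not tested, and abundant genes weigh most in it: Ctsb went from 328 ± 26.8 CPM on normal diet to 509 ± 21.0 CPM at week 5 and Psap from 217 ± 87.8 to 473 ± 58.5 CPM. The summed level was 4492 ± 322 CPM on normal diet, 4382 ± 435 CPM (n = 4) at week 1, 4446 ± 452 CPM (n = 3) at week 2 and 4335 ± 33.3 CPM (n = 4) at week 3. It was 4780 ± 426 CPM at week 4, 5491 ± 260 CPM at week 5 and 5260 ± 322 CPM at week 6 (n = 3 each). The pump genes among them summed to 781 ± 44.6 CPM on normal diet, 812 ± 24.7 CPM at week 5 and 819 ± 64.4 CPM at week 6, and their ranges overlapped.

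A change was called where edgeR's quasi-likelihood test gave an adjusted p under 0.05 (Benjamini-Hochberg, over all 11869 genes). At week 1, 1 of the 41 tested lysosomal genes was called, the fall of Gla, beside 1.2% of all genes. At weeks 2 and 3 none was called by edgeR, DESeq2 or limma voom, beside 0.885% and 0.851% of all genes by edgeR. An unadjusted edgeR p under 0.05 was found for 4 and 7 lysosomal genes. The share of all genes at that unadjusted threshold was not counted, so these numbers have no background. At week 4 the rise of Man2b1 and the fall of Gla were called, beside 8.3% of all genes. At week 5, 14 rose, beside 19.1% of all genes, and 3 fell, beside 16.3%. At week 6, 12 rose, beside 16.3% of all genes, and 3 fell, beside 10.5%. The rises at both weeks include Atp6v0d2, which passed the filter on low counts only through weeks 5 and 6. All 12 that rose at week 6 also rose at week 5, and the same 3 fell at both weeks; the 6 comparisons share the normal-diet libraries. The rises of Ctsb, Ctsd, Ctss, Man2b1, Asah1 and Grn were called at both weeks whichever of the 25 libraries was left out. The falls were less stable: with only the compared groups in the fit, 1 gene fell at week 5 and 0 at week 6. The median log2 fold change of the 41 was 0.22 at week 5 and 0.18 at week 6, against -0.05 over all genes at both weeks. With library size as the only scaling, the median of all genes moved to 0.28 at week 5 and 0.25 at week 6, so each change here is relative to the composition-scaled median.

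**Figure D2:**
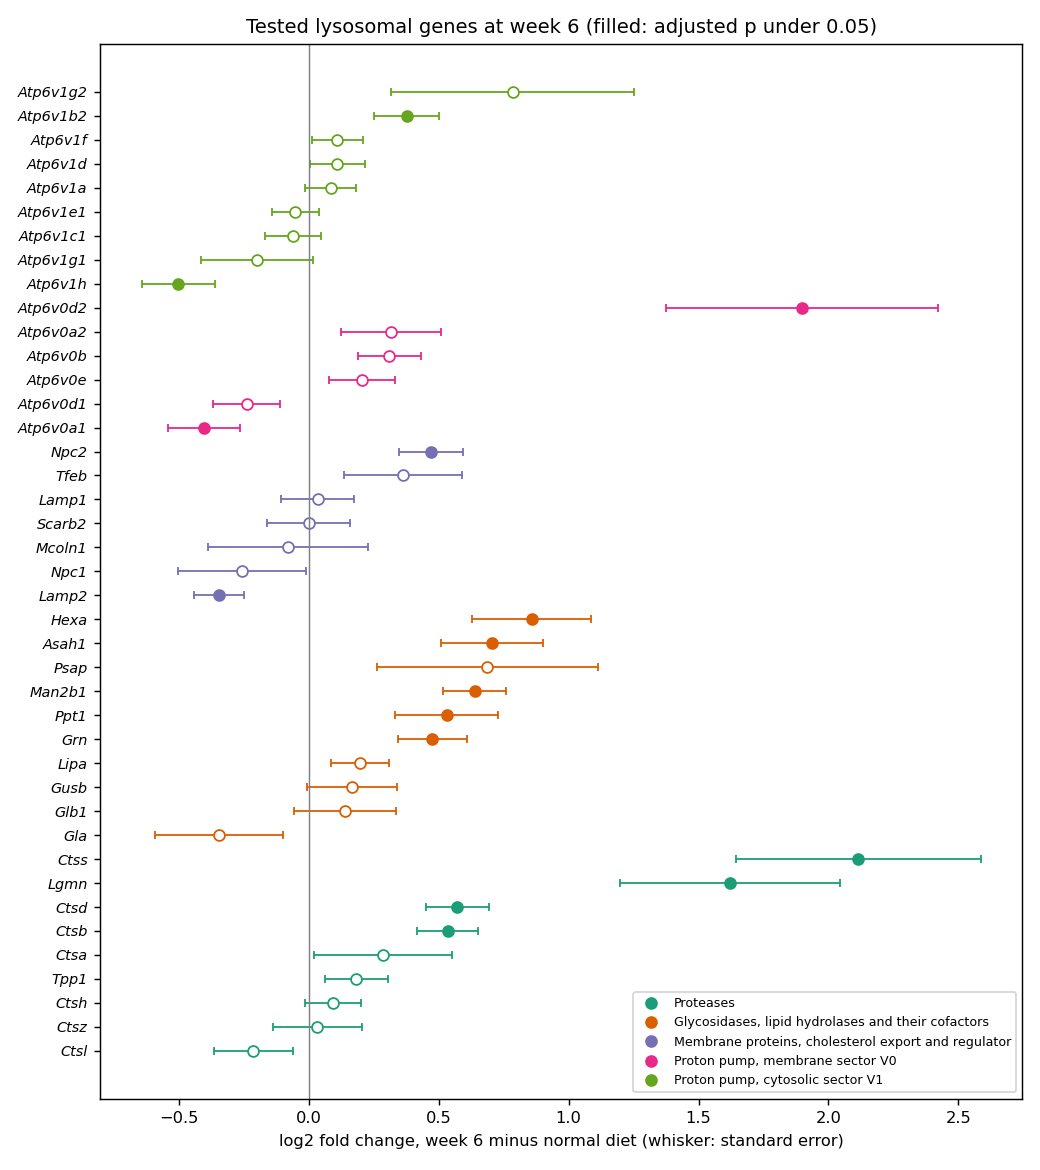
Log2 fold change at week 6 against normal diet for each of the 41 tested lysosomal genes, grouped by role in colour, with the standard error as whiskers. Filled points passed an adjusted p under 0.05 (12 higher, 3 lower); the proteases Ctss and Lgmn and the pump subunit Atp6v0d2 lie farthest to the right.

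Of the 10 proteases, 9 were tested. At week 6, 4 rose and 0 fell, beside 16.3% and 10.5% of all genes, and at week 5, 5 rose, beside 19.1%. Ctsd, the main aspartic protease of lysosomes, was at 237, 299, 307, 286 and 243 CPM in normal-diet libraries 1 to 5. It was at 228, 209, 271 and 251 CPM at week 1, at 300, 217 and 241 CPM at week 2, at 269, 280, 273 and 264 CPM at week 3, and at 285, 303 and 242 CPM at week 4. The libraries read 370, 448 and 391 CPM at week 5 and 399, 463 and 362 CPM at week 6. The 6 libraries of weeks 5 and 6 lay above all 19 earlier ones, and the log2 fold change at week 6 was 0.57 ± 0.12 (standard error; edgeR adjusted p = 0.00116).

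Ctsb, a cysteine protease and the 4th most abundant of these genes on normal diet, was at 300 to 365 CPM on normal diet, at 269 to 384 CPM in weeks 1 to 3 and at 331 to 426 CPM at week 4. It reached 507, 531 and 489 CPM at week 5 and 524, 452 and 448 CPM at week 6, again above every earlier library. The log2 fold change was 0.63 ± 0.12 at week 5 and 0.53 ± 0.12 at week 6 (edgeR adjusted p = 0.000206 and 0.00156).

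Ctss, a cysteine protease known for antigen processing in macrophages and dendritic cells, had a wide spread on normal diet, at 26.3, 102, 51.1, 73.8 and 20.6 CPM. Its lowest values were in normal-diet libraries 5 and 1, which also had the lowest marker scores. In weeks 1 to 4 it ranged from 40.8 to 183 CPM, and it was at 246, 261 and 225 CPM at week 5 and 251, 233 and 231 CPM at week 6. The libraries of weeks 5 and 6 did not overlap with any other, and the log2 fold change at week 6 was 2.11 ± 0.47 (edgeR adjusted p = 0.00239).

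Lgmn, the asparaginyl endopeptidase that processes cathepsins, was at 10.9, 21.0, 20.9, 24.8 and 11.2 CPM on normal diet and at 82.8, 79.2 and 78.2 CPM at week 5. At week 6 the libraries parted: libraries 1 and 3 had 86.2 and 62.0 CPM, and library 2 had 16.7 CPM, inside the normal-diet range. Its log2 fold change was 2.16 ± 0.42 at week 5 and 1.62 ± 0.42 at week 6 (edgeR adjusted p = 0.000532 and 0.00729). Without week 6 library 1, the week 6 value was 1.13 and was no longer called. Week 6 library 2 also had the lowest Ctsl of the 25 libraries, 278 CPM, and the lowest Lamp2, 312 CPM, while its Ctsd was the highest at 463 CPM.

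Ctsl was otherwise steady. It was at 438 to 559 CPM on normal diet, 416 to 552 CPM at week 1, 354 to 451 CPM at week 2, 394 to 476 CPM at week 3, 488 to 598 CPM at week 4 and 450 to 493 CPM at week 5, with 497 and 499 CPM in the other 2 libraries of week 6. It was called in no comparison, with a log2 fold change of -0.21 ± 0.15 at week 6. Tpp1, a tripeptidyl peptidase, rose at week 5 by 0.41 ± 0.12 (log2; edgeR adjusted p = 0.00945), a call lost without week 5 library 2, and was at 0.18 ± 0.12 at week 6, where it was not called. Ctsa, Ctsh and Ctsz were not called at either week, with week 6 values of 0.29, 0.09 and 0.03 (log2).

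Ctsk, the collagen-degrading cathepsin, did not pass the filter: its 54 counts in all were 3 on normal diet, 10 over weeks 1 to 3, 14 at week 4, 17 at week 5 and 10 at week 6. Its highest level was 1.20 CPM.

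**Figure D3:**
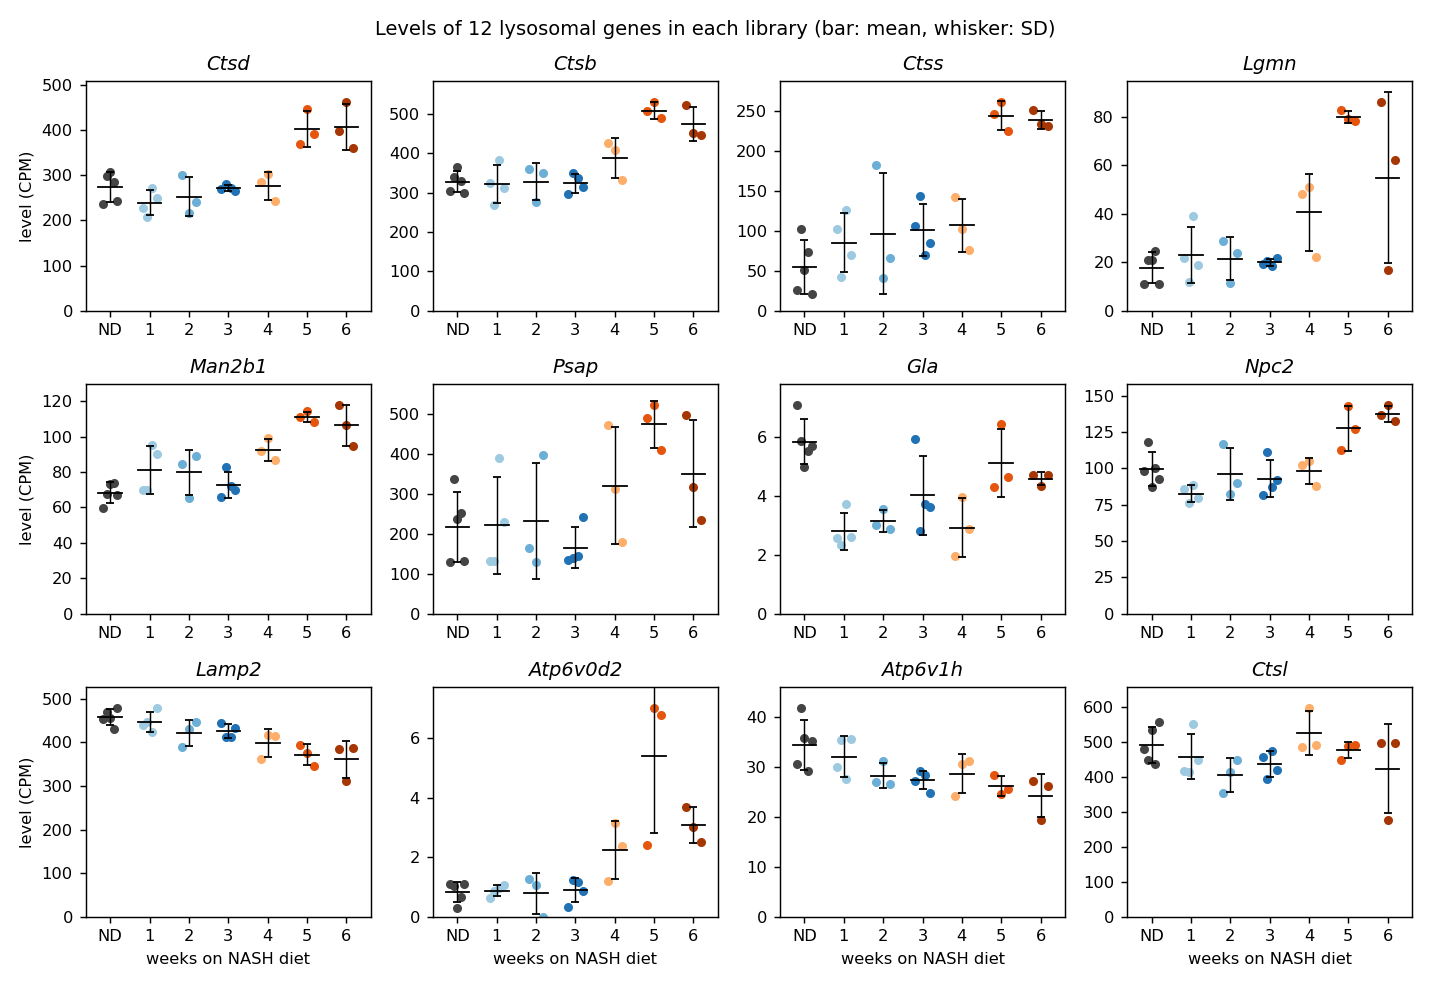
Composition-scaled CPM of 12 lysosomal genes in every library, by weeks on the NASH diet (ND, normal diet), with the mean as a bar and the SD as a whisker. Ctsd, Ctsb and Ctss at weeks 5 and 6 lie above all earlier libraries, Gla is lower on average at weeks 1 to 4, and Lgmn and Ctsl show 1 low library at week 6.

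All 10 glycosidases, lipid hydrolases and cofactors were tested. At week 6, 5 rose and 0 fell, beside 16.3% and 10.5% of all genes, and at week 5, 6 rose, beside 19.1%. Man2b1, a mannosidase that trims glycans, had the smallest p of this group at week 6. It was at 59.6, 67.8, 73.3, 73.8 and 67.1 CPM on normal diet, at 69.8, 69.7, 95.4 and 90.3 CPM at week 1, at 84.7, 65.5 and 89.0 CPM at week 2 and at 65.9, 82.9, 72.3 and 69.6 CPM at week 3. It was then at 91.7, 99.0 and 86.6 CPM at week 4, at 111, 114 and 108 CPM at week 5 and at 118, 106 and 94.8 CPM at week 6. From week 4 on, every library lay above the normal-diet range, as did those of Atp6v0d2 for that gene. Man2b1 was the only gene of the 41 tested here called as higher by edgeR before week 5. DESeq2 called 2 as higher at week 4, and so did edgeR with library size as the only scaling. Against normal diet its log2 fold change was 0.44 ± 0.12 at week 4, 0.70 ± 0.12 at week 5 and 0.64 ± 0.12 at week 6 (edgeR adjusted p = 0.0299, 9.88e-05 and 0.000398). The week 4 call was lost without normal-diet library 1 or 2 or without week 4 library 1 or 2. Lysosomal genes outside the 41 were also called as higher at week 4, where 8.3% of all genes were called in either direction. They were 3 of 16 other membrane proteins, 1 of 10 pump partners and 1 of 18 TFEB relatives and nutrient-sensing genes. Of 28 other hydrolases, 9 sorting genes and 24 autophagy genes, 0 were called as higher then.

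Hexa, a subunit of the hexosaminidase that degrades GM2 ganglioside, was at 24.1 to 36.9 CPM on normal diet, 61.1, 70.7 and 58.8 CPM at week 5 and 66.7, 54.0 and 44.0 CPM at week 6. Its log2 fold change at week 6 was 0.86 ± 0.23 (edgeR adjusted p = 0.00727), and without week 6 library 1 it was 0.69 and not called. Asah1, the acid ceramidase, was at 8.57 to 12.3 CPM on normal diet, 17.1, 14.6 and 18.4 CPM at week 5 and 17.1, 14.8 and 17.1 CPM at week 6, with no overlap. Its log2 fold change was 0.74 ± 0.19 at week 5 and 0.70 ± 0.20 at week 6 (edgeR adjusted p = 0.00422 and 0.00852).

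Ppt1, which removes palmitate from proteins, had a log2 fold change of 0.53 ± 0.20 at week 6 (edgeR adjusted p = 0.0465). That call was lost when any of 13 libraries was left out in turn, the 3 of week 6 among them. Grn, the progranulin that lysosomes cleave into granulins, rose from 156 to 196 CPM on normal diet to 236, 278 and 247 CPM at week 5 and 232, 256 and 258 CPM at week 6. Its log2 fold change at week 6 was 0.47 ± 0.13 (edgeR adjusted p = 0.00891). Lipa, the acid lipase that releases cholesterol and fatty acids from lipoproteins, was at 161 to 205 CPM on normal diet and 189 to 215 CPM at week 6, and was called in no comparison. Glb1, a galactosidase, was likewise called in none.

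Psap, the precursor of the saposins that present sphingolipids to hydrolases, had the widest spread among the abundant genes. It was at 130, 336, 236, 252 and 131 CPM on normal diet, 133, 132, 389 and 229 CPM at week 1, and 165, 130 and 397 CPM at week 2. At week 3 it was at 135, 139, 145 and 241 CPM, at week 4 at 472, 311 and 179 CPM, at week 5 at 490, 522 and 408 CPM, and at week 6 at 497, 317 and 235 CPM. All libraries of week 5 lay above the normal-diet range, whereas those of week 6 overlapped with it. The log2 fold change was 1.12 ± 0.42 at week 5 (edgeR adjusted p = 0.0448) and 0.69 ± 0.43 at week 6 (edgeR adjusted p = 0.254). The week 5 call was lost when any of 11 libraries was left out in turn, each of the 3 of week 5 among them.

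Gla, the galactosidase that degrades globotriaosylceramide and that is deficient in Fabry disease, went the other way early. It was at 7.07, 5.86, 4.98, 5.52 and 5.70 CPM on normal diet and at 2.56, 2.31, 3.71 and 2.60 CPM at week 1, with no overlap. It was at 3.00, 3.55 and 2.87 CPM at week 2, 5.92, 2.81, 3.72 and 3.60 CPM at week 3 and 1.96, 3.94 and 2.86 CPM at week 4. At week 5 it was at 4.28, 6.42 and 4.63 CPM and at week 6 at 4.69, 4.31 and 4.70 CPM. Its log2 fold change was -1.05 ± 0.24 at week 1 and -0.98 ± 0.25 at week 4 (edgeR adjusted p = 0.0216 and 0.0201), and -0.89 ± 0.26 at week 2 and -0.53 ± 0.23 at week 3 (edgeR adjusted p = 0.127 and 0.318). At week 5 it was -0.19 ± 0.24 and at week 6 -0.35 ± 0.25, not called. The call at week 1 was lost without normal-diet library 1 or without week 1 library 1, 2 or 4, and that at week 4 without normal-diet library 1 or week 4 library 1.

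All 7 genes for membrane proteins, cholesterol export and regulation were tested, and 1 rose and 1 fell at both weeks 5 and 6. Of all genes, 19.1% rose and 16.3% fell at week 5, and 16.3% rose and 10.5% fell at week 6. Npc2, the soluble protein that hands cholesterol to NPC1, was at 98.4, 118, 87.4, 100.0 and 92.7 CPM on normal diet. It was at 86.1, 75.9, 88.4 and 79.7 CPM at week 1, at 117, 82.7 and 90.0 CPM at week 2, at 81.5, 111, 87.5 and 92.0 CPM at week 3 and at 102, 105 and 87.7 CPM at week 4. It reached 112, 143 and 127 CPM at week 5 and 137, 144 and 132 CPM at week 6, where it lay above the normal-diet range. Against normal diet its log2 fold change was 0.36 ± 0.12 at week 5 and 0.47 ± 0.12 at week 6 (edgeR adjusted p = 0.0254 and 0.00581). The week 5 call was lost without normal-diet library 3 or without week 5 library 2 or 3.

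Lamp2, the membrane protein needed for fusion with autophagosomes and for chaperone-mediated autophagy, was at 453, 471, 457, 432 and 479 CPM on normal diet. It was at 393, 377 and 346 CPM at week 5 and 385, 312 and 387 CPM at week 6, below the normal-diet range in all 6 libraries. The log2 fold change was -0.30 ± 0.10 at week 5 and -0.34 ± 0.10 at week 6 (edgeR adjusted p = 0.0162 and 0.00885), but it was 0.04 and -0.04 with library size as the only scaling. Without week 6 library 2 the week 6 value was -0.25 and was not called, and the week 5 call was lost without normal-diet library 5 or week 5 library 3.

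Lamp1 was at 570, 726, 671, 680 and 572 CPM on normal diet, at 564, 512, 707 and 648 CPM at week 1, at 529, 511 and 815 CPM at week 2 and at 547, 514, 562 and 610 CPM at week 3. It was at 715, 695 and 582 CPM at week 4, 659, 697 and 636 CPM at week 5 and 657, 741 and 579 CPM at week 6. All groups overlapped, and the log2 fold change at week 6 was 0.03 ± 0.14. Npc1, the membrane protein that exports cholesterol, was at 31.2 to 58.0 CPM on normal diet and at 35.3 to 38.7 CPM in the 6 libraries of weeks 5 and 6, and was not called against normal diet. Scarb2, the receptor that carries glucocerebrosidase to lysosomes, the calcium channel gene Mcoln1 and Tfeb were called in no comparison. Tfeb was at 4.01 ± 0.98 CPM on normal diet, 6.40 ± 0.66 CPM at week 2 and 5.14 ± 1.16 CPM at week 6.

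The V0 sector had 10 symbols, of which 6 were tested, and 1 rose and 1 fell at weeks 5 and 6. Of all genes, 19.1% rose and 16.3% fell at week 5, and 16.3% rose and 10.5% fell at week 6. Atp6v0d2, a variant of the d subunit known from osteoclasts and macrophages, was at 1.09, 1.03, 0.311, 0.673 and 1.10 CPM on normal diet. It was at 0.639, 0.867, 0.961 and 1.07 CPM at week 1, at 1.29, 1.08 and 0 CPM at week 2 and at 0.320, 1.23, 1.19 and 0.869 CPM at week 3. It was at 1.20, 3.15 and 2.38 CPM at week 4, at 2.43, 7.02 and 6.77 CPM at week 5 and at 3.71, 3.02 and 2.50 CPM at week 6. Every library of weeks 5 and 6 lay above all those of the normal diet and weeks 1 to 3. Its log2 fold change was 2.69 ± 0.49 at week 5 and 1.90 ± 0.52 at week 6 (edgeR adjusted p = 0.000179 and 0.00801). This gene passed the filter on low counts only through weeks 5 and 6, so that it had to differ there among the genes tested.

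The other d subunit, Atp6v0d1, was at 31.8 ± 3.47 CPM on normal diet and 27.0 ± 0.68 CPM at week 6, and was not called. Of the tags of both d subunits, Atp6v0d2 held 2.61 ± 1.16% on normal diet (SD over libraries, as for the next values). In weeks 1, 2 and 3 it held 2.67 ± 0.52%, 2.80 ± 2.51% and 3.13 ± 1.65%. In weeks 4, 5 and 6 its share was 6.38 ± 2.29%, 15.5 ± 6.87% and 10.2 ± 1.62%. The highest share was 20.6% in week 5 library 3, from 57 of its tags (95% Wilson interval 16.2 to 25.7%, counting error only). In week 2 library 3 it was 0, with an upper Wilson bound of 1.48%. Atp6v0d1 thus supplied most of the tags in each library.

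Atp6v0a1, a proton-channel a subunit, was at 26.1, 34.0, 36.4, 34.6 and 40.1 CPM on normal diet, 26.4, 24.5 and 24.4 CPM at week 5 and 26.9, 27.3 and 23.4 CPM at week 6. The log2 fold change at week 6 was -0.40 ± 0.14 (edgeR adjusted p = 0.0322), and -0.10 with library size as the only scaling. The normal-diet and week 6 libraries overlapped, and the week 6 call was lost without normal-diet library 3 or 5 or without week 6 library 1 or 3.

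Atp6v0b, a proteolipid of the ring that carries protons, had the highest mean level of the tested V0 genes, which do not include Atp6v0c. It was at 80.7, 87.8, 99.8, 91.1 and 73.8 CPM on normal diet, 90.4, 71.3, 94.8 and 93.9 CPM at week 1, 91.4, 89.5 and 95.9 CPM at week 2 and 97.2, 88.1, 81.8 and 93.0 CPM at week 3. It was at 96.2, 101 and 80.6 CPM at week 4, 88.7, 109.6 and 93.8 CPM at week 5 and 114, 119 and 89.5 CPM at week 6. The log2 fold change at week 6 was 0.31 ± 0.12 (edgeR adjusted p = 0.0594), and DESeq2 called it at 0.34. The e subunit gene Atp6v0e and the a subunit gene Atp6v0a2 were not called.

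The other 4 V0 symbols did not pass the filter. Atp6v0c had 60 counts in all and its listed copy Atp6v0c-ps2 had 7; near-identical copies can share reads, so the level of Atp6v0c is uncertain. Atp6v0e2 had 58 counts, 21 of them at week 6, and Atp6v0a4, known from kidney, had 3.

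The V1 sector had 14 symbols, of which 9 were tested, and 1 rose and 1 fell at weeks 5 and 6. Of all genes, 19.1% rose and 16.3% fell at week 5, and 16.3% rose and 10.5% fell at week 6. Atp6v1b2, the B subunit of the ATP-splitting head, was at 45.6 to 61.1 CPM on normal diet, 71.5, 90.8 and 72.7 CPM at week 5 and 77.3, 67.2 and 57.6 CPM at week 6. The B subunit's log2 fold change was 0.59 ± 0.12 at week 5 and 0.38 ± 0.12 at week 6 (edgeR adjusted p = 0.000597 and 0.0256). The week 6 call was lost without normal-diet library 1 or 3 or without week 6 library 1 or 2. Its partner in the head, Atp6v1a, whose promoter window holds a CLEAR core, was at 75.7 ± 6.12 CPM on normal diet and 80.3 ± 3.48 CPM at week 6 and was not called.

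Atp6v1h, a regulatory subunit between the sectors, had the smallest p of the V1 group at week 6. It was at 30.5, 41.7, 35.7, 29.1 and 35.1 CPM on normal diet, 29.9, 35.3, 27.5 and 35.6 CPM at week 1, 27.0, 31.1 and 26.6 CPM at week 2 and 27.2, 29.1, 28.3 and 24.8 CPM at week 3. It was at 24.1, 30.5 and 31.2 CPM at week 4, 28.3, 24.5 and 25.5 CPM at week 5 and 27.2, 19.4 and 26.2 CPM at week 6, below the normal-diet range at both last weeks. The log2 fold change at week 6 was -0.50 ± 0.14 (edgeR adjusted p = 0.00856). It was -0.20 with library size as the only scaling, and -0.37 and not called without week 6 library 2. The week 5 value was -0.40 ± 0.14 (edgeR adjusted p = 0.0269), a call lost without normal-diet library 2 or 5 or without week 5 library 2 or 3.

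Atp6v1e1 had the highest mean level of the tested pump genes. It was at 155, 163, 145, 143 and 144 CPM on normal diet and 148, 159, 141 and 147 CPM at week 1. At week 2 it was at 171, 159 and 160.5 CPM and at week 3 at 166, 167, 157 and 155 CPM. It was at 133, 139 and 152 CPM at week 4, 134, 126 and 125 CPM at week 5 and 128, 163 and 143 CPM at week 6. The week 5 libraries lay below the normal-diet range, with a log2 fold change of -0.22 ± 0.09 (edgeR adjusted p = 0.06). Atp6v1c1, Atp6v1d, Atp6v1f, Atp6v1g1 and Atp6v1g2 were called in no comparison. Atp6v1c2 had 1 count, and Atp6v1b1, Atp6v1e2 and Atp6v1g3, forms of subunits known from kidney or testis, and Atp6v1fnb, named as a neighbour of Atp6v1f, had 0 counts in all 25 libraries.

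A comparison inside the NASH diet, weeks 5 and 6 against weeks 1 to 3, compares no normal-diet library, although those libraries entered its filter, scaling and estimate of spread. In it 17 lysosomal genes rose, beside 20.5% of all genes, and 3 fell, beside 18.4%. The 17 were 6 proteases, 8 hydrolases or cofactors, Npc2, Atp6v1b2 and Atp6v0d2. Of these, Atp6v0d2 had passed the filter on low counts only through weeks 5 and 6, so its rise here lends no support. The 17 included Ctsa at 0.62 ± 0.18, Gusb, a glucuronidase, at 0.35 ± 0.12 and Gla at 0.56 ± 0.17 (log2, edgeR adjusted p = 0.00937, 0.0206 and 0.0122). These 3 were not called as higher at week 5 or 6 against normal diet. The call of Gla was lost without week 5 library 2, that of Gusb without week 5 library 2 or week 6 library 1, and that of Tpp1 without week 6 library 1. Those that fell were Lamp2 at -0.24 ± 0.07, Atp6v1e1 at -0.21 ± 0.06 and Npc1 at -0.44 ± 0.17 (edgeR adjusted p = 0.00666, 0.0105 and 0.0455). They were at -0.02, 0.00 and -0.23 with library size as the only scaling, and the call of Npc1 was lost when any of 15 libraries was left out, that of Atp6v1e1 without week 6 library 1. Fitted on the libraries of these 5 weeks alone, 18 rose and 3 fell, with 20 of the calls kept. The median over the 41 was 0.19, against -0.04 over all genes. With library size as the only scaling, 27 rose in this comparison (30.7% of all genes), 28 at week 5 (31.8%) and 23 at week 6 (27.5%), and 0 fell.

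Among libraries of the same group, 5 lysosomal genes rose with the marker score of other liver cells, beside 8.01% of all genes. The slope, in log2 per unit of the score, was 1.20 ± 0.18 for Ctss, 0.98 ± 0.21 for Lgmn, 0.49 ± 0.12 for Hexa, 0.25 ± 0.06 for Ctsb and 0.22 ± 0.07 for Ctsd. The 14 monocyte and macrophage markers, which are not in the score, had a median slope of 1.21 and 8 were called. The median slope of the 41 lysosomal genes was 0.09, and that of all genes was 0.00.

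The score was 3.42 ± 0.70 on normal diet (n = 5), 4.06 ± 0.53 at week 1, 4.36 ± 0.63 at week 2, 4.19 ± 0.31 at week 3, 4.87 ± 0.50 at week 4, 5.89 ± 0.17 at week 5 and 5.63 ± 0.19 at week 6. All libraries of weeks 5 and 6 lay above all others, so that the score and these weeks can hardly be told apart. Markers that were near 0 before these weeks, such as Acta2, are part of the score. With the score as a term in the model, edgeR called 0 lysosomal genes at week 5 (0.0843% of all genes) and 0 at week 6 (0.126%). Between weeks 5 and 6 and weeks 1 to 3 it also called 0 (0% of all genes). In these comparisons 4, 5 and 6 lysosomal genes had an unadjusted edgeR p under 0.05. The share of all genes at that unadjusted threshold was not counted. Standard errors grew by 1.70 to 1.85 times. The week 6 value of Ctss became -0.36 ± 0.45, of Lgmn -0.51 ± 0.55, of Hexa -0.20 ± 0.31 and of Ctsb -0.01 ± 0.17. Others kept their direction with this term, at values of similar size to their standard errors. Man2b1 was at 0.26 ± 0.20, Grn at 0.27 ± 0.23 and Lamp2 at -0.17 ± 0.17. Of the 12 that rose at week 6, 7 kept a positive sign, and the 3 that fell all kept theirs. Among the 7 was Atp6v0d2 at 2.07 ± 1.00, which had passed the filter on low counts only through weeks 5 and 6. Of all 41 tested lysosomal genes, called or not, 23 kept their week 6 sign with this term. Whether the called genes kept theirs more often was not tested.

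**Figure D4:**
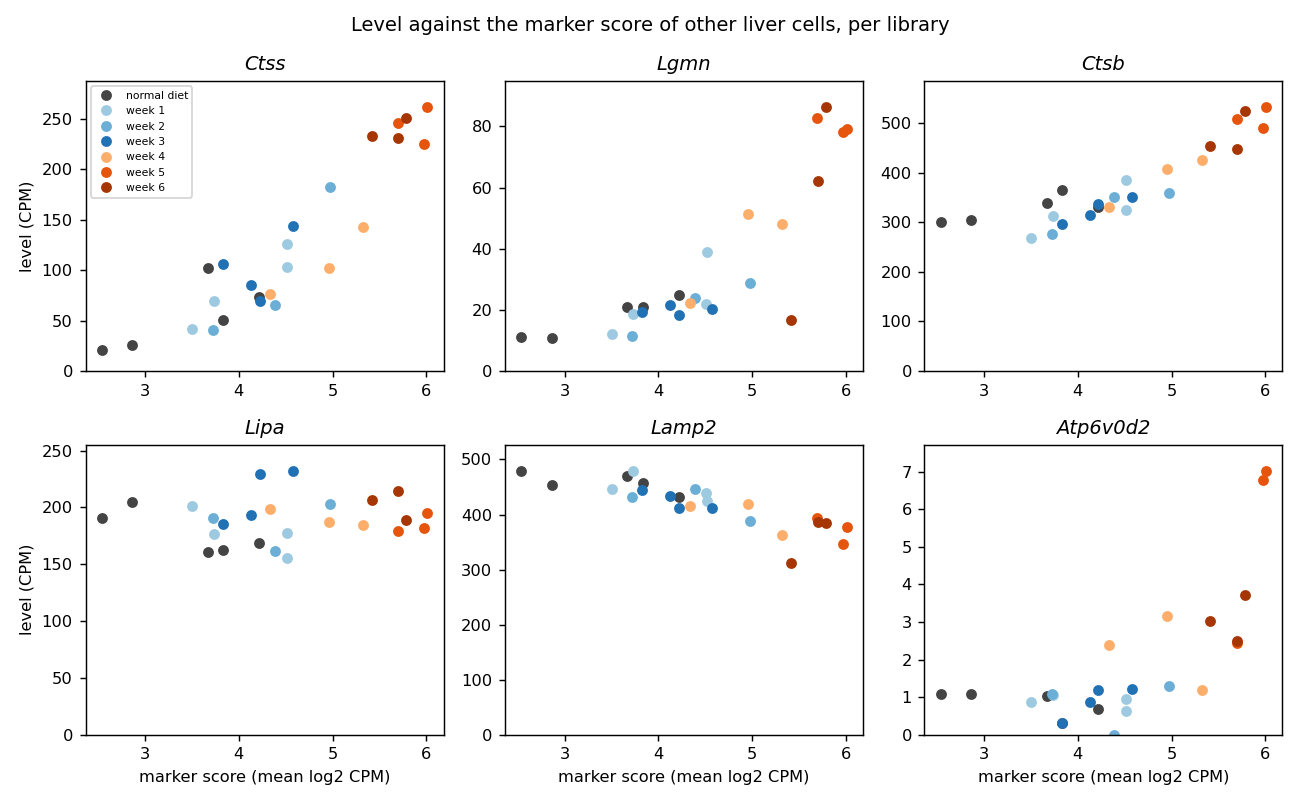
Composition-scaled CPM of 6 lysosomal genes against the marker score of other liver cells, in mean log2 CPM, with 1 point per library and groups in colour. Ctss, Lgmn and Ctsb are higher at higher scores also among early libraries, Lipa shows no such order, and Atp6v0d2 lies near 1 CPM through week 3.

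A second feature of the libraries moved with several of the same genes inside the groups; it was noticed after their values were seen. Of the counts on 260 ribosomal protein pseudogenes and the 59 genes they are named after, the pseudogenes held 2.41 to 10.1% per library. The share was 3.12 to 6.92% on normal diet, 2.41 to 7.84% at week 1, 2.74 to 7.86% at week 2, 4.91 to 10.1% at week 3, 2.63 to 5.10% at week 4, 2.63 to 3.37% at week 5 and 3.59 to 6.48% at week 6. Among libraries of the same group, 9 lysosomal genes fell with the log2 ratio of pseudogene to gene counts, beside 9.18% of all genes, and 2 rose, beside 9.53%. Psap had a slope of -0.96 ± 0.06 log2 per unit of the log2 ratio (edgeR adjusted p = 2.95e-11), Atp6v1g1 of -0.49 ± 0.05, Ctsa of -0.53 ± 0.09, Hexa of -0.46 ± 0.08 and Lamp1 of -0.29 ± 0.04. Ctsz, Atp6v0e, Scarb2 and Man2b1 also fell, by -0.31 to -0.17. Npc1 rose by 0.53 ± 0.07 and Lipa by 0.18 ± 0.04.

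With this ratio as a term, 13 lysosomal genes rose (18.7% of all genes) and 4 fell (16.7%) at week 5, and 14 rose (17.6%) and 3 fell (14%) at week 6. Psap, not called at week 6 before, was then at 0.69 ± 0.12 (edgeR adjusted p = 0.000135). Its value without the ratio was also 0.69, so only the standard error shrank. The ratio was chosen after the values of Psap, which follows it closely inside groups, were seen. The p-value of Psap with this term is therefore no independent test. Between weeks 5 and 6 and weeks 1 to 3, 13 rose (18.1%) and 2 fell (15.5%). The call of Npc1 was lost there, at -0.04 ± 0.10, as were those of Ctsa, Gusb, Tpp1 and Ppt1. What sets the pseudogene share of a library was not tested.

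**Figure D5:**
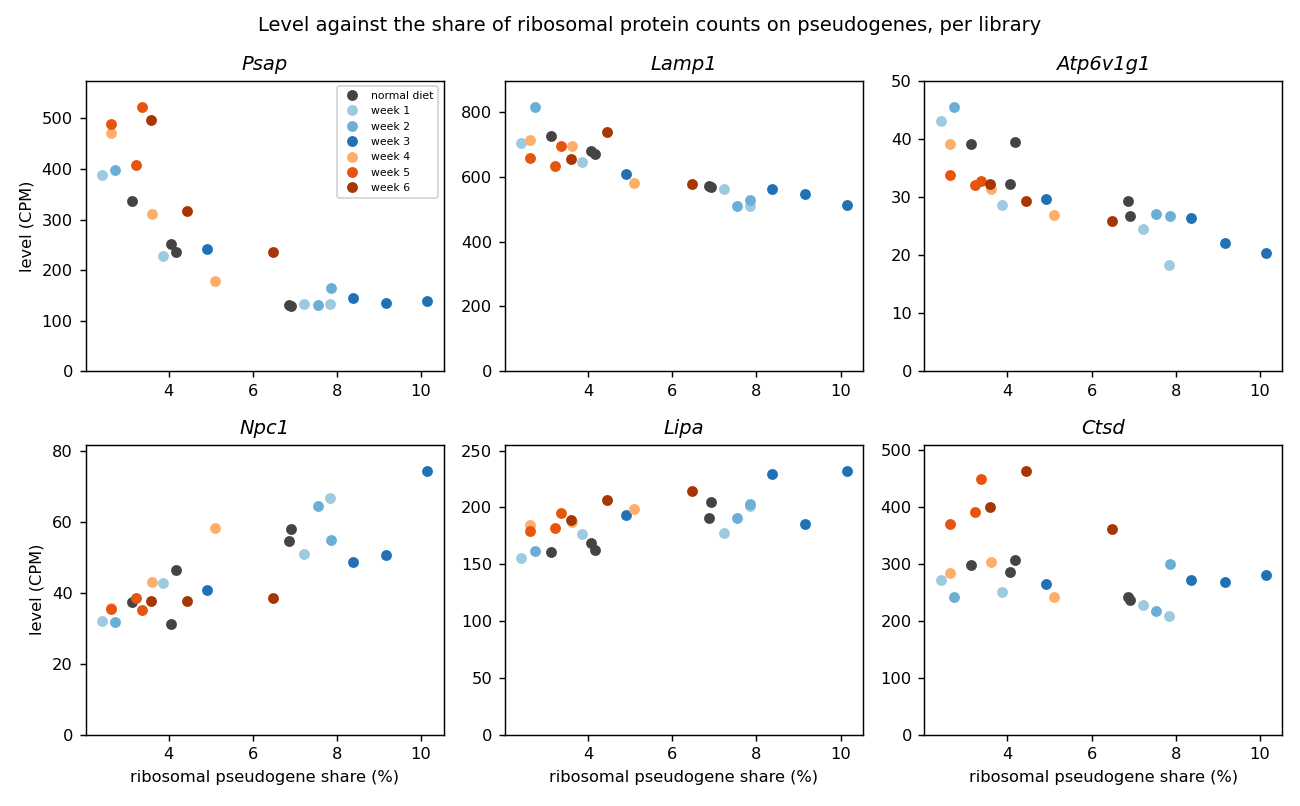
Composition-scaled CPM of 6 lysosomal genes against the percentage of ribosomal protein counts that fell on pseudogenes, with 1 point per library and groups in colour. Psap, Lamp1 and Atp6v1g1 are lower and Npc1 and Lipa higher where the share is higher, and Ctsd is set apart by weeks 5 and 6.

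The 7 tested genes with a TCACGTGA in the promoter window held 1 that rose at week 6, Ctsd, and 3 that rose at weeks 5 and 6 against weeks 1 to 3, Ctsd, Ctsa and Gla. Of the 24 tested genes with a window and no such motif, 7 and 10 did, beside 16.3% and 20.5% of all genes. With 7 genes, 1 that rose is about the share of all genes. No window was found for Ctsb, Asah1, Atp6v0d2 and Atp6v1b2, which rose in both comparisons. Atp6v1h and Npc1, which each fell in 1 of them, had none either. These genes are in neither group, so the contrast is incomplete. The median log2 fold change at week 6 was 0.08 with the motif and 0.19 without it.

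Other genes of the pathway were counted by list at week 6, where 16.3% of all genes rose and 10.5% fell. Of 28 other lysosomal hydrolases and activators, 5 rose and 2 fell, which is near those shares. The phospholipase gene Pla2g15 rose from 11.3 ± 2.68 to 25.8 ± 6.03 CPM (log2 fold change 1.18) and the galactosylceramidase gene Galc from 2.50 ± 1.03 to 5.28 ± 0.47 CPM (1.06), while the GM2 activator gene Gm2a fell from 187 ± 17.4 to 135 ± 15.9 CPM (-0.47, and -0.17 with library size as the only scaling). Of 16 other lysosomal membrane proteins, 5 rose and 0 fell. The tetraspanin gene Cd63 rose from 2.51 ± 0.51 to 19.8 ± 3.48 CPM (2.98) and Laptm5, known from blood cells, from 16.2 ± 9.77 to 82.5 ± 9.44 CPM (2.32). Gpnmb, known from lipid-laden macrophages, had 6 counts over the 5 normal-diet libraries and 392 over the 3 of week 6.

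Of 10 pump partners only Ncoa7, a pump-binding protein, was called, from 2.56 ± 1.73 to 10.9 ± 0.19 CPM (2.02). Of 9 sorting genes, Gga3 rose by 0.81 (log2), and the mannose phosphate receptor gene Igf2r and the phosphotransferase subunit gene Gnptg fell, at -0.66 and -0.79. Of 18 relatives of TFEB and genes of nutrient sensing at the lysosome, Tfec rose from 1.20 ± 0.58 to 4.91 ± 2.69 CPM (2.00) and Lamtor4 fell, by -0.44. Of 24 autophagy genes 0 rose and 3 fell, Atg13 at -0.45, Nbr1 at -0.49 and Atg3 at -0.39, with the share that fell near that of all genes. With library size as the only scaling none of these 7 lower genes was called, and with the marker score as a term none of the genes named from these lists was.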

How the data were processed

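The authors deposited a table of raw counts per gene symbol, with 1 column per library; its values are whole numbers. Reads were handled with FastQC, cutadapt and STAR 2.7.1a on build GRCm39, per the submitters' processing notes. The counting tool and the annotation: not given in the sources used here.

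From these, group differences were fitted by edgeR 4.0.16 under R 4.3.3 (TMM factors, filterByExpr by group, robust quasi-likelihood F-tests) in 1 model of 7 groups over 25 libraries, with 18 residual degrees of freedom. Calls needed an adjusted p (Benjamini-Hochberg) under 0.05. Totals of 5281143 to 10015751 counts put a level of 1 CPM at a few tags per library. Alternatives used DESeq2 1.42.0 or its size factors, limma voom (limma 3.58.1), library size as the only scaling, other filters, only the compared groups, a replicate block, the marker score, libraries left out in turn and, chosen after values were seen, the pseudogene ratio.

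The members, lists, markers and alternatives were chosen with earlier results of these data known. Named are all members called in any comparison, with every library's value for the smallest p at week 6 and the highest level of each role group (Ctss, Lgmn, Gla and others with library values were added after seeing them), and up to 3 called genes per pathway list. No libraries of a group were copies: chi-squared over degrees of freedom was 5.42 to 32.2. Deviations from group means correlated at -0.441 to 0.406 over 66 same-numbered pairs of libraries, 14 above 0.1. Their median was -0.0050, against -0.0026 for pairs with different numbers, so same-numbered libraries were in general no more alike. A weak or partial pairing was not tested. Promoters are RefSeq's.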

Additional observations from a re-analysis of the deposited data

Results flagged for a closer look

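Within groups of 4 or 5 libraries, 123 sets of values were screened for a library far from the rest, and 5 were picked out; chance alone picks about 1 in 20. Gusb was at 28.2 CPM in normal-diet library 3, against 17.0 to 18.6 CPM in the others. Hexa was at 49.1 CPM in week 1 library 3, against 25.3 to 28.0 CPM. Psap was at 241 CPM in week 3 library 4, against 135 to 145 CPM. In week 3 library 1, Atp6v0a1 was at 30.9 CPM, against 23.7 to 24.7 CPM, and Atp6v1d at 75.2 CPM, against 64.6 to 65.9 CPM. Groups of 3 libraries, among them weeks 5 and 6, were not screened.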

How the results depend on the processing

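The numbers of lysosomal genes called were 1, 0, 0, 2, 17 and 15 at weeks 1 to 6 and 20 for weeks 5 and 6 against weeks 1 to 3. With the marker score as a term they were 0 in every comparison. Library size as the only scaling gave 0 at week 1, 28 at week 5 and 23 at week 6. At week 1, 0 were called with no filter, with the replicate block, and without both normal-diet libraries 1 and 5. At week 4, 1 was called with only the compared groups, 0 with the replicate block, and 0 without both normal-diet libraries 1 and 5. With the replicate block the other counts were 12 at week 5 (12 higher, 0 lower, so the falls of Lamp2, Atp6v0a1 and Atp6v1h were not called), 13 at week 6 (11 higher, 2 lower) and 21 for the last comparison (18 higher, 3 lower); the libraries share only a number. With only the compared groups, 14 rose and 1 fell at week 5, and 11 rose and 0 fell at week 6. Leaving out each library gave 0 to 1 at week 1, 0 at weeks 2 and 3, 0 to 3 at week 4, 12 to 18 at week 5, 10 to 16 at week 6 and 16 to 21 for the last comparison. At week 6 Atp6v1e1 turned to 0.25 with library size only, and Ctsb to -0.0115, Ctss to -0.36, Lgmn to -0.51, Hexa to -0.20 and Atp6v1b2 to -0.0471 with the marker score. In the last comparison the score turned Psap to -0.10, Ctss to -0.39, Gusb to -0.11 and Npc1 to 0.10, and library size only took Atp6v1e1 to 0.000639. The cause was not tested. Genes under about 5 CPM, such as Gla, Tfeb and Atp6v0d2, rest on few tags per library.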
